A study of Homo sapiens with 32 samples.

Results

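The HOX genes of clusters A to D were described in H3K27ac chromatin immunoprecipitation sequencing (ChIP-seq) of SK-N-BE(2)C cells. H3K27ac, acetylation of histone H3 at lysine 27, marks active promoters and enhancers. The members were 38 protein-coding HOX genes (10 of HOXA, 10 of HOXB, 9 of HOXC and 9 of HOXD), and the regions were those of the authors' consensus set whose nearest protein-coding start site within 100 kb belonged to one of them. This gave 27 of 92108 regions, 5 in HOXA, 2 in HOXB, 11 in HOXC and 9 in HOXD, and they were nearest to 22 of the 38 genes. The other 16 genes (HOXA2, HOXA4, HOXA5, HOXA6, HOXA9, HOXA10, HOXB1, HOXB2, HOXB4 to HOXB9, HOXD4 and HOXD11) had no region.

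SK-N-BE(2)C is an established neuroblastoma line with amplified MYCN. All cells came from this 1 line and were exposed for 5 days to solvent alone (DMSO), to 1 µM palbociclib (PB, which blocks the cell-cycle kinases CDK4 and CDK6), to retinoic acid (RA) or to both drugs (PB+RA). Each group held 4 ChIP libraries, which the study's methods describe as different passages plated independently, and the 16 input libraries served as the authors' reference. The start sites of the adrenergic neuroblastoma genes PHOX2A, HAND2, GATA2, GATA3 and DBH lay under peaks in all 16 libraries. The immune genes PTPRC and CD3E and the liver gene ALB had no peak at their start in any library, while the other liver gene, APOA1, had one in 10 (at a scaled fold enrichment over input of 0 to 3.24 in DMSO, 0 to 0.592 with PB, 1.38 to 3.12 with RA and 0 to 0.415 with PB+RA) and was called lower with PB+RA (limma adjusted p = 0.041).

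HOX genes encode homeodomain transcription factors that set position along the body axis. Within each cluster the genes lie in the order in which they are used: those at the 3' end are active early and towards the head, and those at the 5' end late and towards the tail. Retinoic acid binds RAR and RXR receptors, which sit at response elements near the 3' HOX genes and switch them on in the embryonic hindbrain and spinal cord. Polycomb complexes (EZH2, SUZ12, EED, CBX proteins) keep HOX genes silent elsewhere, and PBX and MEIS proteins bind DNA together with HOX proteins.

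3 stretches of reference sequence (hg19, 5' to 3') come from regions of the clusters described below. The HOXB3 region entered the authors' set only through PB+RA, the group where it is high, so its difference between groups is no finding. The HOXD10 stretch holds the bases just upstream of the annotated start, chr2:176981256-176981505 on the plus strand. The HOXB3 stretch, chr17:46632593-46632892 on the minus strand, is the part of a HOXB region that holds a DR5 retinoic acid response element (a direct repeat with a spacer of 5 bases), which is in capitals. The last, chr12:54476228-54476527 on the plus strand, lies within a small GC-rich region 28.6 kb downstream of the HOXC4 start.
HOXD10: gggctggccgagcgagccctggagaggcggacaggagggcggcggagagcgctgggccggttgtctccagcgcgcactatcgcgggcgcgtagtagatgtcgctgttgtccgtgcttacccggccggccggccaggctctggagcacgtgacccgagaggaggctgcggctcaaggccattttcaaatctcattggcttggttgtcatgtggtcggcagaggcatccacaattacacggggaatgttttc
HOXB3: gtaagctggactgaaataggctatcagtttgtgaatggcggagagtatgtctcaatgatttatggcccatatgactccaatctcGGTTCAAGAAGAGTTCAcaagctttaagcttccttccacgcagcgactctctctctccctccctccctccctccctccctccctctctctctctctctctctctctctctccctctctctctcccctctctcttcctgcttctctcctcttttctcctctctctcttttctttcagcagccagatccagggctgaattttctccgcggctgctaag
HOXC4 28.6 kb: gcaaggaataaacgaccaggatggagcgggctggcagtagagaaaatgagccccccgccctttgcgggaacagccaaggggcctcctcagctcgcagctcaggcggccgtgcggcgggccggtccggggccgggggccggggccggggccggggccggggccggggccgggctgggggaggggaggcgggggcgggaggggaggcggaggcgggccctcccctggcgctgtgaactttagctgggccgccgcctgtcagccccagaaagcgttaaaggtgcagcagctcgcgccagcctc

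Per-library values were scaled fold enrichments: the fold over input of the library's broad peaks, averaged over a region or over the 1000 bases on either side of a start site and scaled to a common median, with 0 where no peak was listed. Read depth is unknown here, so a 0 means only that no peak was called. A broad peak carries 1 fold value, so neighbouring start sites can share it: the 6 windows from HOXC4 to HOXC10 lay under 3 to 7 distinct peaks, depending on the library. Library lists held 64516 (DMSO replicate 3) to 104392 peaks (RA replicate 2).

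The H3K27ac of these clusters lay almost entirely in HOXC and HOXD. Of the 38 start-site windows, 12 had a peak in all 16 libraries: HOXC4, HOXC5, HOXC6, HOXC8, HOXC9, HOXC10 and HOXC11, and HOXD1, HOXD3, HOXD8, HOXD9 and HOXD10. 18 windows had a peak in no library, namely HOXA2 to HOXA10, HOXB1 to HOXB8, HOXD4 and HOXD12. HOXB9, HOXC12 and HOXD11 had one in 1 library each, and HOXA11, HOXA13, HOXB13, HOXC13 and HOXD13 in some.

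**Figure D1:**
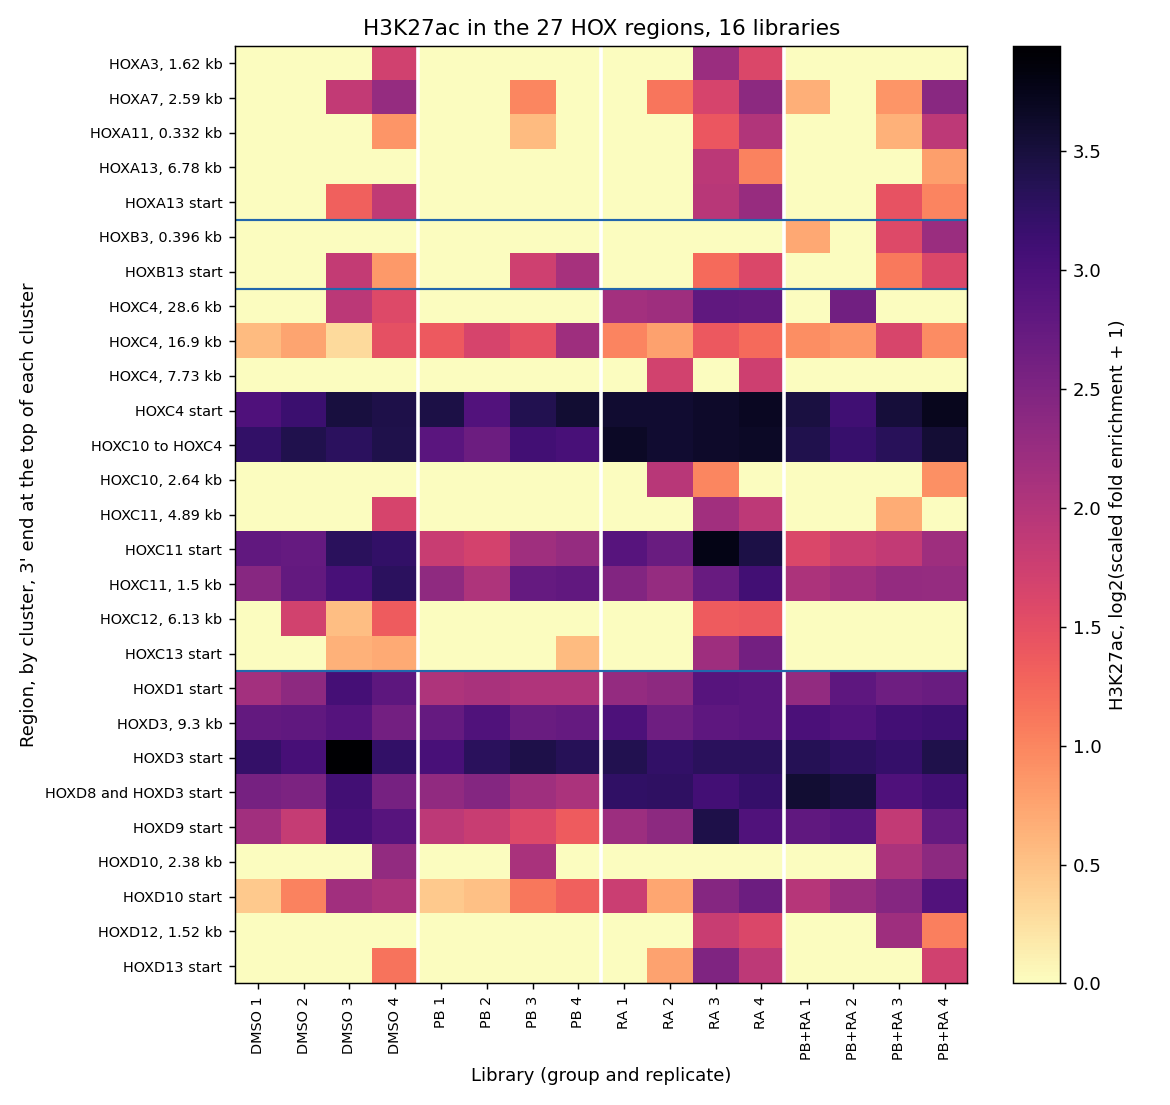
H3K27ac as log2(scaled fold enrichment + 1), by colour, in the 27 HOX regions (vertical, by cluster with the 3' end on top, named by the nearest gene and the distance to its start) and the 16 libraries (horizontal, by group and replicate). 11 regions of HOXC and HOXD are coloured in every library, and the HOXA and HOXB regions in few.

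In DMSO the levels per window ran down from HOXC4, 17.3 ± 4.18 (SD, n = 4), and HOXC8, 15.8 ± 2.89, to HOXC9, 12.6 ± 1.30. HOXD8 (10.2 ± 1.67), HOXD3 (10.1 ± 2.63), HOXC6 (9.57 ± 2.18), HOXC5 (9.20 ± 2.14), HOXC10 (8.99 ± 2.12) and HOXD9 (8.68 ± 3.92) followed and lay within 1 SD of their neighbours in this order. HOXC11 (5.98 ± 1.18) and HOXD1 (5.35 ± 1.58) were lower, and HOXD10 was the lowest of the 12 at 2.57 ± 1.92. The step from HOXC8 to HOXC9, that from HOXC9 to HOXD8 and that from HOXD1 to HOXD10 were each larger than both SDs, and the others were not.

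HOXC4 and HOXC10 mark the ends of the widest region, chr12:54377402-54442145. It is 64.7 kb long, covers the starts of HOXC10, HOXC9, HOXC8, HOXC6 and HOXC5 together with the microRNA genes MIR196A2 and MIR615, and ranked 34 by width and 38 by DMSO concentration among all 92108 regions. The study's group means there (log2 concentration, normalized read counts over the region, given without SD or n) were 13.1 (DMSO), 12.5 (PB), 13.2 (RA) and 13 (PB+RA). The 4 DMSO libraries read 8.39, 9.48, 8.78 and 9.66 in scaled fold enrichment, those with PB 6.24, 5.37, 7.54 and 7.1, those with RA 11.7, 10.9, 11.3 and 11.6, and those with PB+RA 9.56, 8.06, 8.93 and 10.7. All PB libraries were thus below all DMSO libraries and all RA libraries above them, while PB+RA overlapped DMSO. None of these differences passed both thresholds: limma gave a log2 fold of -0.42 ± 0.14 (SE) with adjusted p = 0.064 for PB, and 0.30 with adjusted p = 0.15 for RA.

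**Figure D2:**
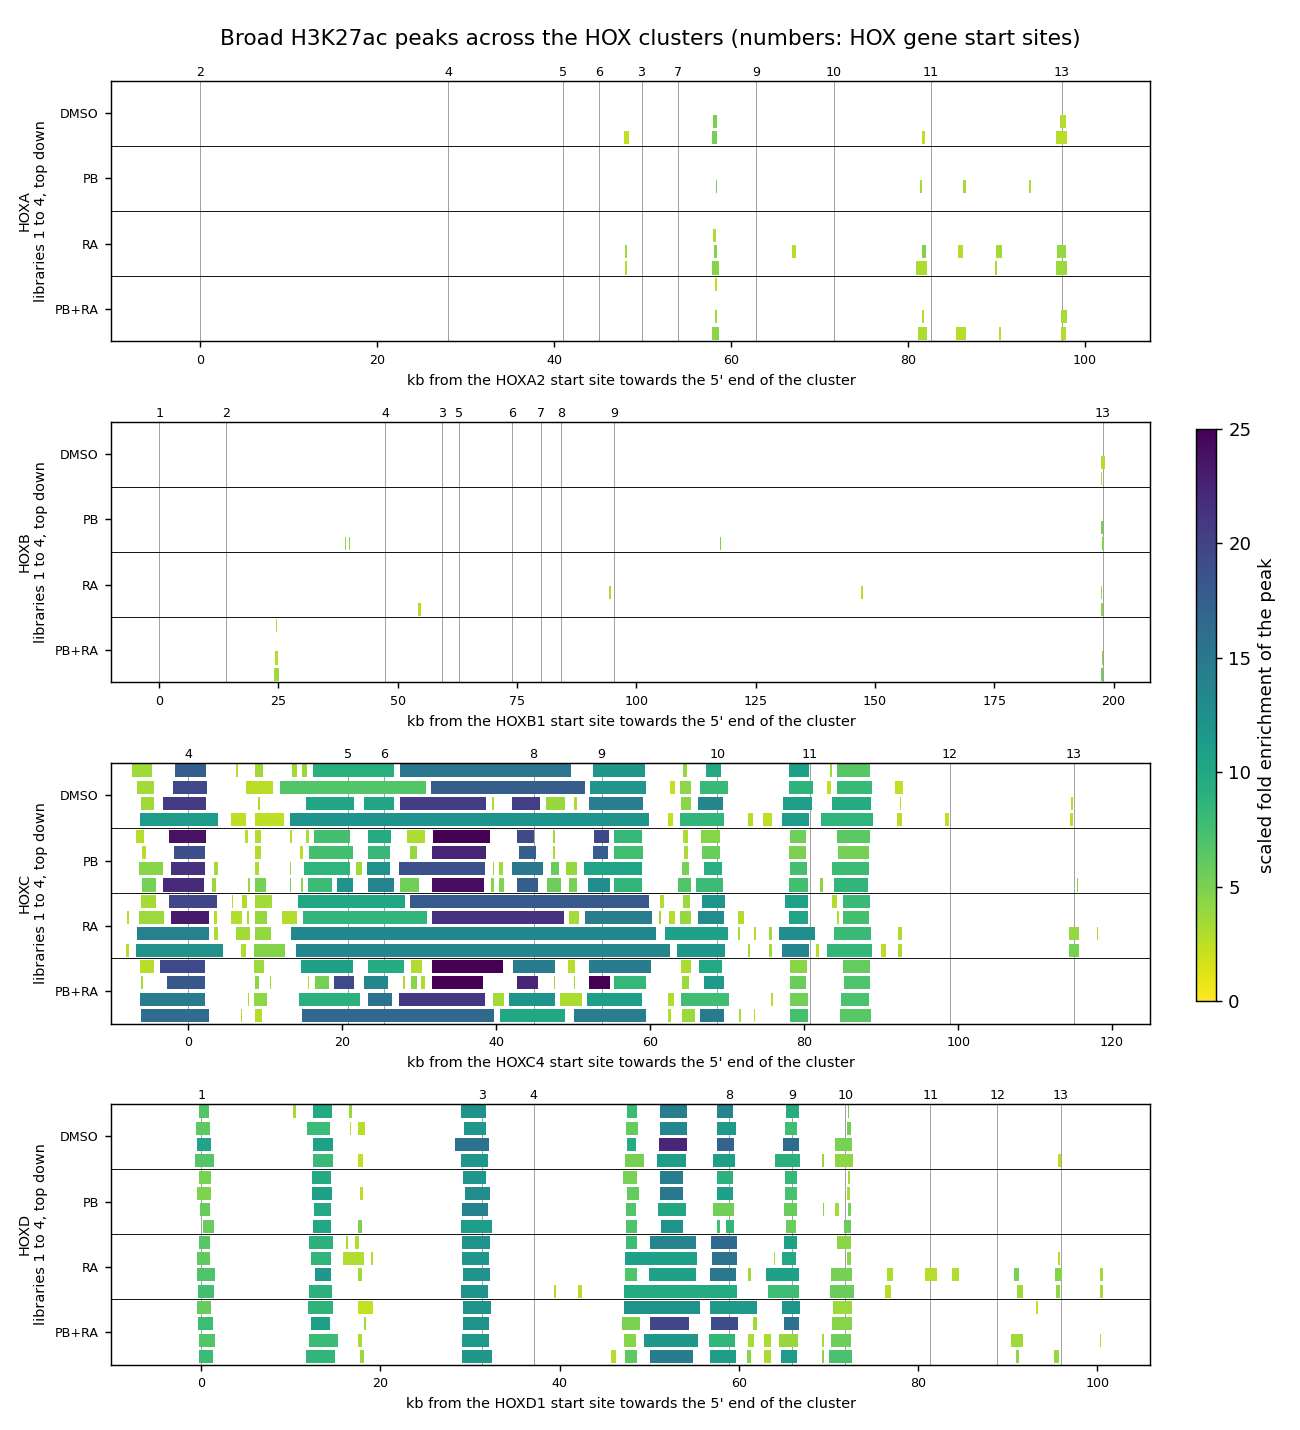
Broad peaks of each of the 16 libraries along the 4 clusters, drawn to scale against distance (kb) from the start site at the 3' end of each cluster, with HOX start sites as numbered lines and colour for the scaled fold enrichment of the peak. The HOXC peaks cover 39.4 to 84.2 kb in every library and the HOXD peaks 13.4 to 29.1 kb, while the HOXA and HOXB peaks cover at most 3.84 and 1.57 kb.

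Over each cluster with 10 kb on either side (117.4 kb for HOXA, 217.7 kb for HOXB, 135.0 kb for HOXC and 115.9 kb for HOXD), the length under peaks differed between groups in HOXC and HOXD. In HOXC it ranged from 56.2 to 82.2 kb in DMSO, from 39.4 to 55.1 kb with PB, from 67.8 to 84.2 kb with RA and from 40.4 to 64.7 kb with PB+RA. PB did not overlap DMSO there. In HOXD the ranges were 14.2 to 21.3 kb in DMSO, 13.4 to 15 kb with PB, 19.99 to 29.1 kb with RA and 20.6 to 27.2 kb with PB+RA. Both RA-containing groups lay above every PB library and overlapped DMSO. These lengths follow how much was called as peak in each library and are given without a test.

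The weak peaks of HOXA, HOXB and the 5' genes moved with the replicate number. 11 of the 27 regions, all in HOXC or HOXD, had a peak in all 16 libraries. Over the other 16 regions, replicates 1 and 2 of the 4 groups had a peak in 10 of 128 library and region pairs, and replicates 3 and 4 in 67 of 128. The labels give no batch that separates these numbers, and the part of this split in the results for weak regions was not tested beyond the alternatives given in the closing section. The HOXA7 region, 2.59 kb from a HOXA7 start and the HOXA region with the highest DMSO concentration (4.88), shows it. It read 0, 0, 2.60 and 3.84 in DMSO, 0, 0, 0.989 and 0 with PB, 0, 1.19, 2.15 and 4.16 with RA, and 0.569, 0, 0.825 and 4.27 with PB+RA. At HOXB13, the highest of HOXB (3.72), all 8 libraries of replicates 1 and 2 were at 0 and all 8 of replicates 3 and 4 above it, from 0.790 to 3.36, in every group. HOX13 genes are the last in each cluster and pattern the tail end of the body.

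**Figure D3:**
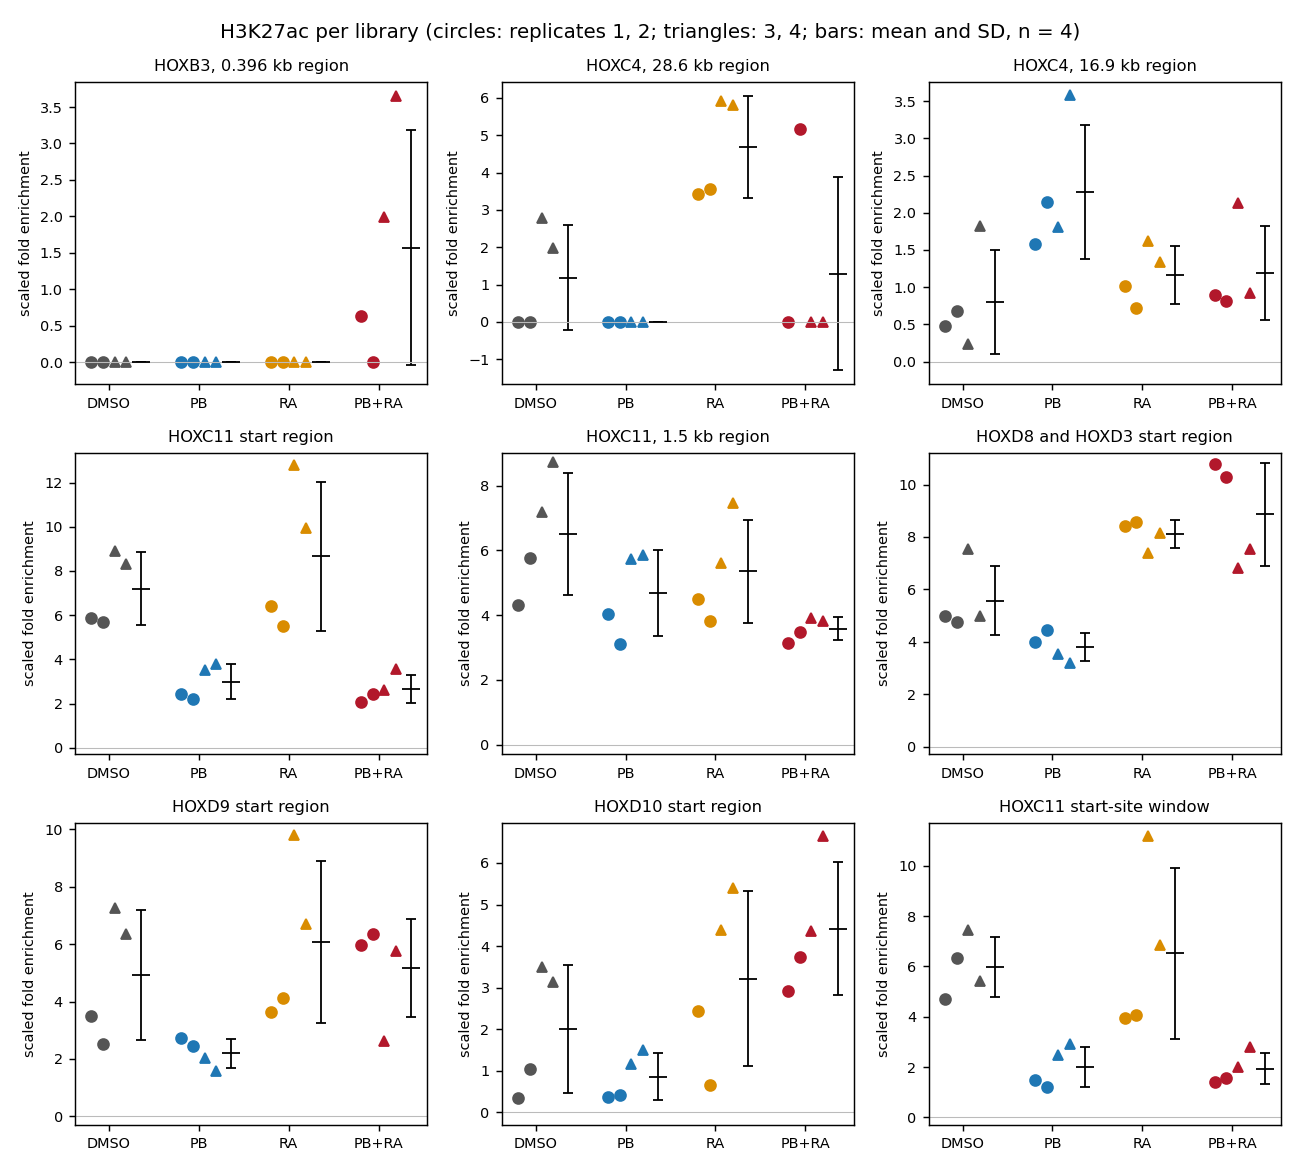
Scaled fold enrichment of single libraries (circles for replicates 1 and 2, triangles for 3 and 4), with mean and SD (n = 4), at the 8 HOX regions (HOXB3 among them, which was high only in the group that brought it into the set) and the 1 window past the thresholds in any comparison, by group. At the HOXC11 start every PB and PB+RA library (2.06 to 3.80) lies below every DMSO and RA library (5.49 to 12.8), and at HOXB3 only 3 PB+RA libraries are above 0.

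PB against DMSO asks what CDK4/6 inhibition alone does to these clusters. At HOXC11, a 5' gene of the cluster, H3K27ac at the start fell with PB. The region there, chr12:54366162-54370940 (4.78 kb, over exons of HOXC11 and of HOTAIR, a long noncoding RNA on the opposite strand), read 5.86, 5.71, 8.90 and 8.33 in DMSO and 2.45, 2.22, 3.51 and 3.80 with PB. The groups did not overlap, and the log2 fold was -1.04 ± 0.22 (SE, limma adjusted p = 0.00541). The start-site window gave the same picture, with 4.71, 6.34, 7.43 and 5.42 in DMSO, 1.47, 1.2, 2.46 and 2.90 with PB and a log2 fold of -1.24 ± 0.29 (limma adjusted p = 0.0272). With regions centred by GC content the fall at the region was -0.70 and was no longer called (adjusted p = 0.061), while the window kept its call (adjusted p = 0.0235). In such bulk libraries, fewer cells with the mark and less of it per cell cannot be told apart. On the share of each feature covered by peaks, neither HOXC11 feature was called in any comparison (adjusted p 0.0637 to 0.387). The window's call was lost (adjusted p 0.0565 to 0.0664) without any of DMSO replicates 2, 3 or 4 or PB replicates 1 or 2.

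The other PB call was a rise. The region chr12:54464548-54466872, 16.9 kb downstream of the HOXC4 start in an intron of the noncoding gene FLJ12825, read 0.480, 0.673, 0.235 and 1.82 in DMSO and 1.59, 2.15, 1.81 and 3.58 with PB. The groups overlapped, in that DMSO replicate 4 was above 2 of the PB libraries. The log2 fold was 0.90 ± 0.28 (limma adjusted p = 0.0484), and the call was lost when any of 14 of the 16 libraries was left out, all but DMSO replicate 4 and PB+RA replicate 3 (adjusted p 0.0196 to 0.141 over all 16), and with GC centring (adjusted p = 0.0816). HOX regions called with PB were therefore 1 of 27 higher and 1 of 27 lower, against 4.85% and 4.37% of all regions. Among the 17 HOX windows that were tested (those with a peak in at least 2 libraries of a group), 1 was lower and 0 higher, against 2.8% and 0.352% of all windows tested. HOXD8 (log2 fold -0.84, adjusted p = 0.069) and HOXC10 (-0.69, adjusted p = 0.11) did not pass in their windows. The median log2 fold over all windows was -0.14 with PB (-0.28 without scaling and 0.03 with quantile scaling), and these values are to be read relative to it.

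RA against DMSO asks whether the ligand of the RAR receptors alone changed the clusters. 1 of 27 HOX regions was called higher and 0 lower, against 10.3% and 6.67% of all regions, and 0 of 17 windows in either direction, against 0.676% higher and 0.455% lower of all windows (limma, adjusted p under 0.05). The region is the small GC-rich one printed above, chr12:54476200-54476555 (356 bases), in an intron of FLJ12825 and an exon of another noncoding gene. It read 0, 0, 2.78 and 1.98 in DMSO and 3.42, 3.57, 5.93 and 5.80 with RA, without overlap (log2 fold 1.60 ± 0.49, limma adjusted p = 0.027). The call was lost without DMSO replicate 1 or 2 or RA replicate 3 or 4 (adjusted p 0.0685 to 0.1). In HOXD, the region from HOXD8 to HOXD3 read 4.99, 4.75, 7.54 and 4.97 in DMSO and 8.41, 8.55, 7.37 and 8.13 with RA. DMSO replicate 3 was above RA replicate 3, and the log2 fold of 0.49 (adjusted p = 0.047) was just under the minimum of 0.5 needed for a call.

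PB+RA against DMSO gave, of 27 HOX regions, 1 higher and 2 lower, with HOXB3 not counted, against 18.3% and 12% of all regions, and 1 of 17 windows lower and 0 higher, against 8.06% and 3.11%. HOXB3 entered the set only through PB+RA. It stays among the 27 regions but not among those counted as called. The shares of all regions were not freed of regions that entered in this way, so count and share of higher regions follow unlike rules. At HOXC11 the region read 2.06, 2.44, 2.60 and 3.56 with PB+RA, again below every DMSO library (log2 fold -1.15 ± 0.22, limma adjusted p = 0.000419). The HOXC11 window read 1.40, 1.56, 1.99 and 2.79 (log2 fold -1.26, limma adjusted p = 0.00952). Next to it, chr12:54358681-54365412 over a HOTAIR exon, 1.5 kb upstream of the HOXC11 start, read 4.33, 5.77, 7.17 and 8.73 in DMSO and 3.15, 3.47, 3.90 and 3.81 with PB+RA. Those groups did not overlap either (log2 fold -0.68 ± 0.21, limma adjusted p = 0.0164), and the call was lost with GC centring (-0.43, adjusted p = 0.123) and without DMSO replicate 4 (-0.54, adjusted p = 0.0656).

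HOXB3 stood apart and the region at HOXD8 rose. HOXB3, a 3' gene used in the hindbrain, had no region peak in the 12 other libraries, and the PB+RA libraries read 0.636, 0, 1.99 and 3.65 at chr17:46632368-46633487 (1.12 kb, 396 bases from a HOXB3 start other than the canonical one, whose window was at 0 throughout). The region had a peak in at least 2 libraries of PB+RA and of no other group, so it entered the set of regions only through the group where it is high. Its difference from the other groups was fixed by that filter, and no fold, p or call is given for it. 1 of the 4 PB+RA libraries was also at 0. The authors' group concentrations there were 1.15 (DMSO), 1.31 (PB), 3.82 (RA) and 4.47 (PB+RA). The RA mean was thus above DMSO although no RA library had a peak. The HOXD8 to HOXD3 region, chr2:176991339-177006450 (15.1 kb, the highest DMSO concentration of HOXD at 10.2), read 10.8, 10.3, 6.83 and 7.52 with PB+RA, against a highest DMSO library of 7.54. Its log2 fold was 0.58 ± 0.17 (limma adjusted p = 0.0113), which fell below the minimum (0.49) without PB+RA replicate 1 and was 0.19 (adjusted p = 0.563) in replicates 3 and 4 alone. The call was also lost without scaling (0.54, adjusted p = 0.0738). HOXD8 and HOXD3 are central and 3' genes of their cluster.

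PB+RA was also compared with each single drug. HOXB3 was left out of the called HOX regions but kept among the 27, and the shares of all regions were left as they were. Against RA, with HOXB3 again not counted, 0 HOX regions were higher and 2 lower of 27, against 8.62% and 5.92% of all regions, and 1 of 17 windows was lower, against 3.08%, with 0 higher, against 0.621%. HOXC11 was again lower: the RA libraries read 6.41, 5.49, 12.8 and 9.92 and lay above all PB+RA libraries (region log2 fold -1.35 ± 0.22, limma adjusted p = 0.000581). The HOXC11 window fell by 1.28 on the log2 scale (limma adjusted p = 0.0199), a call lost without PB+RA replicate 1, RA replicate 3 or RA replicate 4 (adjusted p 0.0677 to 0.0814). The small region 28.6 kb from HOXC4 was called lower (log2 fold -1.82 ± 0.49, limma adjusted p = 0.017) although its PB+RA libraries read 0, 5.17, 0 and 0 and overlapped those with RA. That call was lost without PB+RA replicate 1, 3 or 4 (adjusted p 0.0512 to 0.0598) and with GC centring (adjusted p = 0.0875).

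Against PB, 3 of 27 HOX regions were higher and 0 lower, with HOXB3 not counted, against 11.2% and 5.37% of all regions, and 0 of 17 windows passed in either direction, against 0.801% higher and 0.669% lower (limma, adjusted p under 0.05). The count of 0 windows depended on the fit. It was 4 with a block for replicates 1 and 2 against 3 and 4, 3 with the replicate block, 4 without PB+RA replicate 3 and 1 without PB replicate 2, 3 or 4. The 3 regions lay in HOXD, at HOXD8, HOXD9 and HOXD10. The HOXD8 to HOXD3 region read 4.0, 4.45, 3.55 and 3.20 with PB, below all 4 PB+RA libraries (log2 fold 1.02 ± 0.17, limma adjusted p = 0.000215). This call was lost in 1 of 30 alternatives. HOXD10, whose gene helps to pattern the lumbar spinal cord and hindlimb, read 0.359, 0.428, 1.16 and 1.49 with PB at chr2:176980572-176983309, and 2.91, 3.73, 4.37 and 6.64 with PB+RA (log2 fold 1.55 ± 0.38, limma adjusted p = 0.00706). These groups did not overlap, and no left-out library removed the call. It was lost in 2 of 30 alternatives, among them stricter peaks (−log10 q of at least 5, limma adjusted p = 0.0946). The DMSO libraries of the HOXD10 region read 0.350, 1.04, 3.49 and 3.15 and overlapped both, with replicate 1 below every PB library. Their mean (2.01) lay between those of PB (0.860) and PB+RA (4.41), and replicates 1 and 2 lay below 3 and 4.

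At HOXD9, chr2:176986574-176990586, the PB libraries read 2.74, 2.46, 2.02 and 1.58 and the PB+RA libraries 5.96, 6.34, 2.62 and 5.75. PB+RA replicate 3 was below the highest PB library (log2 fold 0.91 ± 0.28, limma adjusted p = 0.0302). The call was lost in 8 of 30 alternatives. Among these were the fits without PB+RA replicate 1, 2 or 4 or PB replicate 3 or 4 (limma adjusted p 0.0626 to 0.0942). The exact permutation test over the 70 arrangements of 2 groups of 4, whose smallest p is 0.0286, gave that value for every call without overlap above, 0.0857 for the HOXD8 region with PB+RA against DMSO and for the HOXC4 calls with overlap and 0.0571 for HOXD9.

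The interaction term, which tests whether the effect of PB+RA differs from the sum of the single drugs, was called at 0 of 27 HOX regions (0.211% of all regions were higher and 0.152% lower) and at 0 of 17 windows (0.0% in both directions; limma). The smallest adjusted p of a HOX region was 0.322. 3 HOX regions and 0 HOX windows had an unadjusted p under 0.05.

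The study's group concentrations cover all 27 regions, including those without peaks in most libraries. With PB the HOX median was -0.80 below DMSO on the log2 scale (range -2.01 to 0.40), against -0.09 over all regions, and 23 of 27 were below 0. By cluster the PB medians were -1.12 in HOXA, 0.11 in HOXB, -0.75 in HOXC and -0.80 in HOXD. 12 of 27 (44.4%) were more than 1 below DMSO, against 8.14% of all regions, and 0 more than 1 above it, against 7.27%. With RA the median was 0.34 (range -0.45 to 2.67; all regions -0.01), 22 of 27 were above 0, 4 (14.8%) more than 1 above DMSO against 14.6% of all regions, and 0 more than 1 below it, against 7.24%. With PB+RA the median was -0.05 (all regions -0.02), with 2 regions more than 1 above and 2 more than 1 below DMSO (7.41% each), against 19.8% and 16.1%. No SD belongs to these means and no test was made. HOXB3, HOXD12, HOXD13, the region 6.78 kb from HOXA13 and others had peaks in at least 2 libraries only of groups with RA. Entry into the set needed such peaks, which favoured values above DMSO with RA or PB+RA there. The counts above DMSO include these regions.

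**Figure D4:**
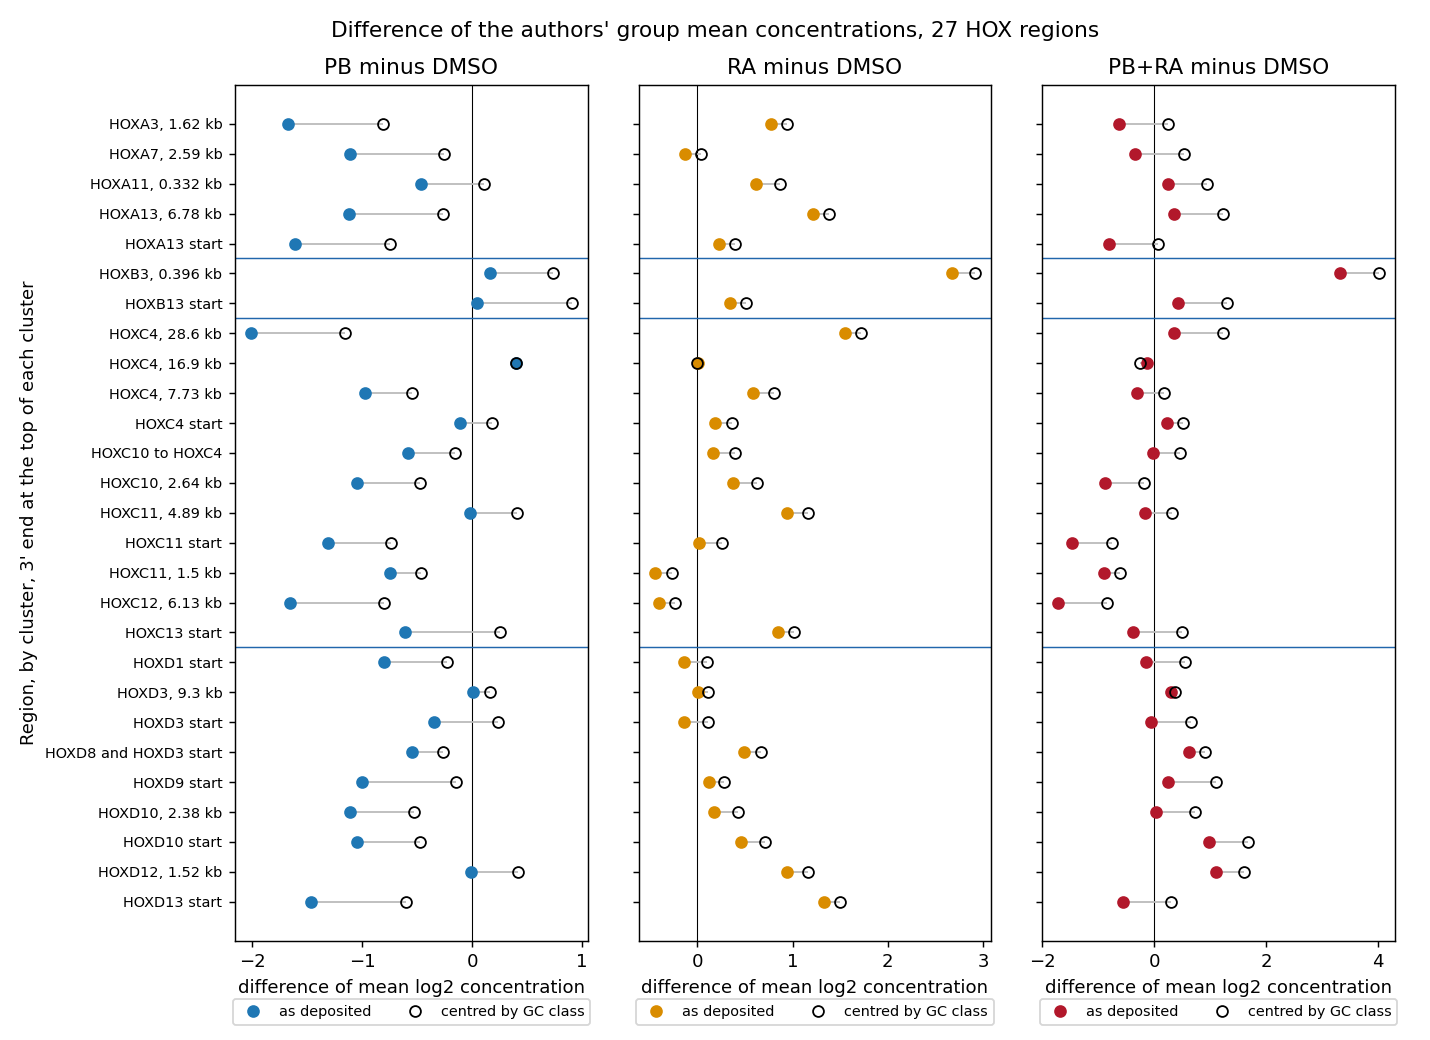
Difference of the authors' mean log2 concentration from DMSO at each of the 27 HOX regions, by cluster and in order from 3' to 5', for PB, RA and PB+RA, as deposited (filled) and centred by GC class (open). Most filled PB points lie below 0 and most RA points above it, and most open PB points lie nearer to 0. HOXB3, which entered the set only through PB+RA, stands highest for RA (2.67) and PB+RA (3.32).

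The size of these differences moved with base composition. HOX regions had a median GC of 57.6%, against 47.08% of all regions. When all regions were split into 10 classes of equal number by GC, the median PB difference was -0.86 in the class with the highest GC and 0.56 in that with the lowest. The same medians were -0.17 and 0.59 for RA and -0.87 and 0.99 for PB+RA. Centred on regions of like GC, the HOX medians were -0.25 (PB), 0.51 (RA) and 0.52 (PB+RA), a change of sign for PB+RA. After centring, 1 of 27 regions (3.7%) was more than 1 below DMSO with PB, against 2.6% of all regions, and 0 more than 1 above it, against 4.96%. With RA 7 of 27 (25.9%) were more than 1 above DMSO, against 11.3%, and 0 more than 1 below it, against 8.59%. With PB+RA 7 of 27 (25.9%) were more than 1 above, against 13.6%, and 0 more than 1 below, against 11.8%. The counts above DMSO include regions that entered the set only through groups with RA. These were HOXB3, HOXD12 and the region 6.78 kb from HOXA13, and with RA also HOXD13 and the region 4.89 kb from HOXC11. On the scale of peak values the HOX median with PB was -0.29 without centring and 0.12 with it. A treatment effect and a difference in base composition between libraries cannot be told apart here: regions with a peak had a median GC of 48.42% to 49.49% in the DMSO libraries, 46.29% to 48.15% with PB, 47.80% to 48.64% with RA and 45.23% to 46.31% with PB+RA.

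The largest concentration differences of each cluster fell on weak regions. In HOXA these were a region 1.62 kb from the HOXA3 start with PB (-1.67), a region 6.78 kb from the HOXA13 start with RA (1.21) and the HOXA13 start with PB+RA (-0.80). The HOXA3 region had a peak in DMSO replicate 4 (2.27) and RA replicates 3 (3.66) and 4 (2.05), and in no PB or PB+RA library. The more distant HOXA13 region had one in RA replicates 3 (2.78) and 4 (1.04) and PB+RA replicate 4 (0.741). The HOXA13 start read 1.49 and 2.66 in DMSO, 2.88 and 3.77 with RA and 1.73 and 1.02 with PB+RA in replicates 3 and 4, and 0 in all other libraries. Thus no PB library had a peak at these 3 regions, and no library of replicates 1 and 2 did.

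In HOXC the largest differences were at the region 28.6 kb from HOXC4 with PB (-2.01) and RA (1.55). With PB+RA the largest was at a region 6.13 kb from the HOXC12 start (-1.72). The HOXC12 region, chr12:54354816-54355853, read 0, 2.27, 0.452 and 1.57 in DMSO, 0 in all PB and PB+RA libraries, and 0, 0, 1.59 and 1.62 with RA. In HOXD they were at the HOXD13 start with PB (-1.46) and RA (1.33), and at a region 1.52 kb from the HOXD12 start with PB+RA (1.11). HOXD13, whose gene patterns the digits, read 0, 0, 0 and 1.22 in DMSO, 0 in all PB libraries, 0, 0.689, 4.61 and 2.73 with RA, and 0, 0, 0 and 2.28 with PB+RA. The HOXD12 region read 2.48 and 2.05 with RA and 3.56 and 1.07 with PB+RA in replicates 3 and 4, and 0 in the other 12 libraries. The HOXD12 start-site window itself had no peak in any library. HOXD12, HOXD13 and the region 6.78 kb from HOXA13 had peaks in at least 2 libraries only of groups with RA. Entry into the set thus favoured their rise with RA, and for HOXD12 also that with PB+RA.

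Along HOXD, the concentration difference with RA was larger towards 5' over the 9 regions (Pearson r = 0.87, Spearman rho = 0.88), from HOXD1 (-0.15) to HOXD13 (1.33). With PB it ran the other way (r = -0.42, rho = -0.52) and with PB+RA it showed little order (r = 0.19, rho = 0.20). Along HOXC, over 11 regions, the values for PB+RA were lower towards 5' (r = -0.69, rho = -0.77), with r = -0.39 for RA and -0.10 for PB. These are descriptions across regions that share libraries and differ in GC and strength, and the DMSO mean enters each of them. HOXD12 and HOXD13, at the 5' end, had peaks in at least 2 libraries only of groups with RA. Entry into the set thus favoured a rise with RA there, so the RA order along HOXD rests in part on that filter.

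The genes next to the clusters showed no called change in any comparison. On the 3' side, SKAP2 of HOXA, SMUG1 of HOXC and MTX2 of HOXD had peaks at their starts in all 16 libraries, and SKAP1 of HOXB in none. On the 5' side CALCOCO1 of HOXC had peaks in all 16 and TTLL6 of HOXB in 15, and EVX1 of HOXA and EVX2 of HOXD, homeobox genes themselves, in none.

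Of 34 genes that regulate HOX clusters or work with HOX proteins (PBX, MEIS and CDX factors, Trithorax and Polycomb subunits, retinoid receptors and CYP26 enzymes), 28 were tested at their start and 6 (PBX2, CDX2, CDX4, EVX1, EVX2 and CYP26C1) had no peak in any library. With PB 0 rose and 2 fell (0.352% and 2.8% of all windows tested): RXRA, a partner of the RAR receptors (log2 fold -1.36, limma adjusted p = 0.043), and MNX1, a motor neuron homeobox gene (-1.88, limma adjusted p = 0.027). With RA 1 rose, RARB, a retinoic acid receptor that is itself a target of RA (1.48, limma adjusted p = 0.014), and 0 fell (0.676% and 0.455% of all windows). CYP26A1, which degrades RA, was listed at 0 in all DMSO and PB libraries and averaged 7.97 with RA and 12.1 with PB+RA, and CYP26B1 likewise had peaks with RA (mean 0.925) and PB+RA (3.70) alone. Both passed the filter only through the groups where they are high, so they are not counted against DMSO or PB. For the same reason CYP26B1, highest with PB+RA, is not counted against RA. The shares of all windows were not freed of such genes. With PB+RA 1 rose (RARB, 2.14, limma adjusted p = 0.00016) and 7 fell, against 3.11% and 8.06% of all windows. 3 of the 5 Polycomb subunits were among the latter, EZH2 (-1.15, limma adjusted p = 0.018), SUZ12 (-1.29, limma adjusted p = 0.025) and CBX2 (-0.61, limma adjusted p = 0.036). EED (0.21, limma adjusted p = 0.46) and CBX8 (-0.14, limma adjusted p = 0.81) did not pass. The HOX cofactors PBX4 (-1.06) and MEIS3 (-0.52) and the genes RXRA (-1.28) and MNX1 (-1.56) were the others. Against RA, with CYP26B1 not counted, PB+RA gave 0 rises and 2 falls (CBX2 and RXRA), against 0.621% and 3.08% of all windows. Against PB it gave 1 rise (RARB) and 0 falls, against 0.801% and 0.669%. Their median log2 fold over the 28 was -0.17 for PB and -0.18 for PB+RA, against -0.14 and -0.08 over all windows.

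Some markers of cell states differed between groups too, and their part in the HOX values was not tested. The 10 adrenergic genes summed to 178 to 193 in DMSO and 188 to 214 with PB. Their sum was 148 to 172 with RA and 158 to 193 with PB+RA, so only RA lay apart from DMSO. Of the 10, 1 was called higher with PB, 2 lower with RA and 1 lower with PB+RA (limma). The shares of all windows were 0.352%, 0.455% and 8.06%. Of 8 mesenchymal genes, 7 were tested and 0 called against DMSO. Their sum was 46.9 to 60.54 in DMSO, 38.4 to 48.8 with PB, 60.52 to 74.8 with RA and 38.5 to 67.2 with PB+RA. Each range overlapped that of DMSO, for RA only just. With PB+RA against RA, 2 mesenchymal genes were called lower and 0 higher, against 3.08% and 0.621% of all windows. Among 3 Schwann cell markers only SOX10 was tested. It averaged 2.14 in DMSO and 2.67 with RA and had no peak in any PB library. With PB+RA the 3 markers summed to at most 0.66. SOX10 was called lower with PB (log2 fold -1.45), with PB+RA (-1.27) and with PB+RA against RA (-1.65). The shares of all windows called lower were 2.8%, 8.06% and 3.08%. Of the endothelial genes, CDH5 had peaks in 4 libraries with a summed level of at most 0.554.

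DR5 elements were searched on both strands by their consensus. Within the 27 HOX regions, 1 (3.7%) held one, the HOXB3 region, at chr17:46632792-46632808, 1083 bases from the nearest HOXB3 start. In windows of 1000 bases at region centres, 2 of 27 HOX regions (7.41%) held one, against 335 of 92092 regions (0.364%). The second lay just outside the region 28.6 kb from HOXC4. DR2, the repeat with the shorter spacer, was in 0 of 27 HOX windows and 2.3% of all. A match is only a run of letters, and binding of a receptor was not measured.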

How the data were processed

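H3K27ac ChIP-seq of SK-N-BE(2)C cells was analysed in 4 groups of 4 libraries, grouped by the labels. The submitters' processing notes name fastp 0.12.4 for trimming, Bowtie2 2.4.4 for alignment to hg19 (another release stands in the methods), MACS2 2.2.7.1 for broad peaks in each library and DiffBind 3.4 for group comparisons. The deposited peak lists give each peak's fold over input, a ratio, and the authors' −log10 q-value, which entered only a stricter alternative. The other deposited peak columns, a score and a −log10 p-value, were not used. The deposited DiffBind tables hold the authors' mean log2 concentration of each group over regions that had peaks in 2 or more replicates of a group. They also hold the authors' own log2 folds, p-values and FDR, which were not used. Counts and read depth per library are unknown here.

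For each library, overlap length times fold was summed over a region, or over 1000 bases on either side of the canonical start site, and divided by its width. Values were scaled to the same median over the 26508 regions with a peak in all 16 libraries. Log2(value + 1) was fitted with limma 3.58.1 (R 4.3.3, trend) over all 92108 regions, or the 14490 windows (of 20175 genes) with peaks in 2 or more libraries of some group, in 1 fit of 16 libraries. P-values were adjusted by Benjamini-Hochberg over all features within a comparison, and calls needed an adjusted p under 0.05 and a log2 fold beyond 0.5. Folds on this scale understate the change of weak regions. Only the limma step was tried on simulated data, with independent values and changes planted at regions with peaks in all 4 DMSO libraries. Peak overlap, scaling, weak regions and the split by replicate number were not tested that way. Single values were compared by a two-sided exact permutation test.

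How the processing could affect the measurements: a library with few reads can miss a weak peak, a broad peak spreads 1 value over its whole length, and scaling to a common median hides a change in total H3K27ac. Base composition was not corrected except in an alternative with 10 GC classes.

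Genes and start sites come from GENCODE release 44 lifted to GRCh37 (hg19), and sequence from that reference. The 16 regions on sequence names outside the reference have no GC content or motif. The members and lists were chosen with earlier results of these data known. Values per library are given for HOX regions and windows called in any comparison and, in each cluster, for the region with the highest DMSO concentration and that with the largest concentration difference of each treatment. Other genes come from fixed lists or lie next to a cluster, and some items of the lists are not reported here. Alternatives were the replicate block, each library left out, GC centring, no scaling, quantile scaling, other pseudocounts, fold minimums, peak thresholds, windows and distances, and the share of a feature covered by peaks. The split of replicates 1 and 2 from 3 and 4 was added after seeing the data.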

Additional observations from a re-analysis of the deposited data

Results flagged for a closer look

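In 9 called regions and windows, 36 groups of 4 libraries were checked for a library far from the other 3, and 4 were found, where chance alone picks about 1 group in 20. In the region 16.9 kb from HOXC4, PB+RA replicate 3 read 2.13 in scaled fold enrichment, and the next library of the group read 0.919. In the region 28.6 kb from HOXC4, PB+RA replicate 2 read 5.17 and was the one library of its group with a peak, a pattern that the rule always picks. In the HOXD8 to HOXD3 region, DMSO replicate 3 read 7.54 and the next 4.99. At HOXD9, PB+RA replicate 3 read 2.62, below the next library at 5.75.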

How the results depend on the processing

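Counts of HOX calls are small and here include HOXB3 with PB+RA, so 1 region moves many of them by more than 1.5 times. Each is given as regions first, then windows, and where no cause is named it was not tested. For PB against DMSO (2 regions), GC centring and the share covered by peaks gave 0, the added block for replicates 1 and 2 against 3 and 4 gave 4, and no scaling, peaks with −log10 q of at least 5, a pseudocount of 2, quantile scaling, a fold minimum of 1, starts within 10 kb and the replicate block with GC centring gave 1. For RA (1 region), GC centring gave 3, the replicate block with GC centring 4, a pseudocount of 0.5, quantile scaling and no fold minimum 2, and the share covered, starts within 10 kb and replicates 3 and 4 alone 0. For PB+RA (4 regions), the replicate block with GC centring gave 7, the share covered 1 and a fold minimum of 1 gave 2. For PB+RA against RA (3 regions), replicates 1 and 2 alone and the stricter peaks gave 1, and for PB+RA against PB (4 regions) the stricter peaks gave 1.

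For windows with PB against DMSO (1), the replicate block, no scaling and windows of 2500 bases gave 2, the added block for replicates 1 and 2 against 3 and 4 gave 4, and the stricter peaks, no filter, quantile scaling, the share covered and replicates 3 and 4 alone gave 0. With PB+RA against DMSO (1), the added block, quantile scaling and replicates 1 and 2 alone gave 2, and the share covered and replicates 3 and 4 alone 0. With PB+RA against RA (1), the share covered and windows of 500 bases gave 0. With PB+RA against PB (0), the added block, windows of 2500 bases and the replicate block with GC centring gave 4, the replicate block 3, no scaling, quantile scaling and replicates 1 and 2 alone 2, and GC centring 1. RA against DMSO (0 windows) and the interaction (0 of both) had no call in any of these. The fits on replicates 1 and 2 alone, on 3 and 4 alone, and their block were chosen after seeing the data.

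Leaving out 1 library at a time gave 1 to 2 regions for PB, 0 to 3 for RA (0 without DMSO replicate 1 or 2 or RA replicate 4, 3 without RA replicate 1), 3 to 5 for PB+RA, 1 to 4 for PB+RA against RA (1 without PB+RA replicate 3 or 4), 2 to 5 for PB+RA against PB (2 without PB+RA replicate 4 or PB replicate 4) and 0 for the interaction. For windows it gave 0 to 3, 0, 1, 0 to 1, 0 to 4 and 0 in the same order. Of the folds of the called regions and windows, 0 of 272 reversed when a library was left out and 49 lost their call, and 0 of 240 reversed under the other alternatives, where 45 lost it. The median concentration difference with GC centring was -0.25 (PB), 0.51 (RA) and 0.52 (PB+RA), the last of which changed sign (HOX regions are GC-rich).

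The replicate numbers did not pair the libraries: deviations from the group means correlated at -0.06 to 0.19 between libraries of the same number in different groups (13 of 24 pairs over 0.1), and 5 of 16 libraries correlated best with their own number. The mean r was 0.11 for libraries of different groups that were both of replicates 1 and 2 or both of 3 and 4, and -0.11 for the others. Over all windows, quantile scaling turned 51 higher and 406 lower calls with PB into 391 and 380, 450 and 1168 with PB+RA into 1127 and 1060, and 90 and 446 with PB+RA against RA into 528 and 577. No scaling turned 116 higher and 97 lower windows with PB+RA against PB into 101 and 32. Over all regions, no scaling turned 4471 higher and 4026 lower calls with PB into 2562 and 4042, quantile scaling turned 10277 and 4950 with PB+RA against PB into 8045 and 7156 and 194 and 140 for the interaction into 170 and 187, and the replicate block with GC centring turned the last into 457 and 581. Depth per library is unknown here and limits what a missing peak can show.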
